A study of Mus musculus with 4 samples.

Results

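The transcripts described here are those to which the deposited table gave no gene name. They were chosen by that blank alone, and they numbered 3382 of the table's 160308 transcripts, or 2.11%. Of these, 1879 had been assembled from reads and have IDs that start with MSTRG, in 1660 assembly loci, and 1503 carried Ensembl transcript IDs. So a blank name did not mean an assembled transcript: 44.4% of the set were Ensembl entries. A further 15995 assembled transcripts did carry a gene name, and 51 of the 1660 loci held both kinds. A description was given for 74 of the 3382, of which 5 were assembled.

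RNA came from 2 culture states of 46C, a line of mouse embryonic stem cells in which Sox1 carries a GFP reporter. The state of interest was rfISCs in PIF medium, described by the submitters as lying between the rosette and formative stages, and the control was ESCs in 2i medium, which blocks MEK and GSK3 and keeps cells naive. There were 2 libraries of each, all from the same line. The labels leave unsaid whether these were separate cultures, and the p-values therefore speak of the spread between libraries, part of which may be technical. The comparison asked how rfISCs differ from naive cells.

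Transcript assemblers join aligned reads into exon chains and give a chain the name of the annotated gene it overlaps. A chain that overlaps none stays unnamed, and can be a long non-coding RNA, an unannotated exon or end of a gene, a pseudogene, or transcription from a repeated element. Here a blank name did not always mean a chain apart from named genes, since 51 of the 1660 loci also held rows with a gene name. Mouse embryonic stem cells are known for transcription from many repeated elements and for clusters of young zinc finger genes, whose similar copies are hard to assemble and to count.

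The Ensembl entries could be read in GENCODE M21, which lists 146 of the 1503, and 144 of these had the table's length. The start of 1 long non-coding RNA and the coding part of 1 short protein-coding transcript are shown, since they stand for the expressed, annotated entries whose values follow. AC160336.1 (ENSMUST00000226445) is a lincRNA of 1 exon and 93147 bases at chr14:44544055-44637201 on the minus strand of GRCm38, and its first 300 bases are given. AL731706.1 (ENSMUST00000227806), described as a protein, lies on the minus strand at chr2:136881271-136891389, and its 150 coding bases are given, with the start codon in capitals.
AC160336.1: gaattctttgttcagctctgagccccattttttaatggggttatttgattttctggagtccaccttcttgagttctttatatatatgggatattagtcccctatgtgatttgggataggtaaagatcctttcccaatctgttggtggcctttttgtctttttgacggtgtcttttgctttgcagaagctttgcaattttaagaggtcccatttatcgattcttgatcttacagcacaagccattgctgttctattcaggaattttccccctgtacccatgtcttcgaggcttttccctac
AL731706.1: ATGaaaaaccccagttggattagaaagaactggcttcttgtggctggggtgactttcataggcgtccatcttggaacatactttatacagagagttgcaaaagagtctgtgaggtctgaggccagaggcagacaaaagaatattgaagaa

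Total counts over all rows were 21499590 and 23780989 in rfISCs and 19243701 and 21517544 in ESCs. Marker genes followed the labels: naive markers summed to 745 and 752 CPM (counts scaled by the library total over all rows) in rfISCs, against 2966 and 3046 CPM in ESCs, and formative markers to 796 and 804 CPM, against 117 and 103 CPM. Fibroblast and feeder markers, of which 5 of 6 were detected, summed to 6.51 and 6.56 CPM in rfISCs and 0.208 and 0.465 CPM in ESCs, and their part in the results was not tested.

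Transcripts without a gene name took a smaller share of the counts in rfISCs. They held 1.27% and 1.22% of the counts in rfISCs, against 1.58% and 1.62% in ESCs, or 1.24% ± 0.0351 and 1.60% ± 0.0301 (SD, n = 2 libraries per group). The groups did not overlap, but an exact two-sided permutation test gave p = 0.33, the smallest that 2 libraries against 2 allow. In bulk RNA, fewer cells of a type and less RNA per cell cannot be told apart. The gap came from the assembled transcripts, since the Ensembl entries held 0.0181% and 0.0190% in rfISCs and 0.0162% and 0.0164% in ESCs. The 10 members with the most counts held 40.6% and 38.8% of the unnamed counts in rfISCs, against 35.3% and 35.7% in ESCs. Without them the shares were 0.752% and 0.745% in rfISCs and 1.02% and 1.04% in ESCs. Assembled transcripts with a gene name held 16.4% and 16.6% in rfISCs and 17.0% and 16.7% in ESCs.

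A count of at least 10 was reached by 1002 and 1068 members in rfISCs, against 1156 and 1170 in ESCs. A count of at least 1 was reached by 1576 and 1595 members in rfISCs and by 1642 and 1654 in ESCs, although the ESCs libraries were the shallower ones on average. In all, 1455 members had no counts in the 4 libraries, 85 of them assembled and 1370 Ensembl entries.

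**Figure D1:**
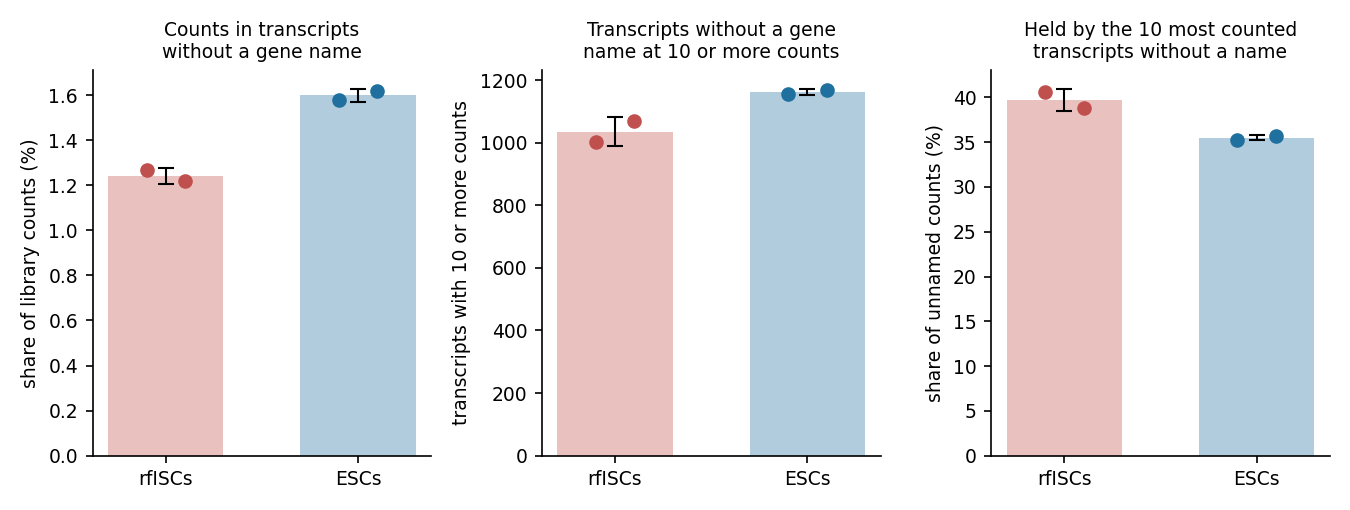
Share of library counts in transcripts without a gene name (%), number of them with 10 or more counts, and share of their counts held by the 10 most counted (%), in rfISCs and ESCs. Points are libraries, bars are means and error bars are SD (n = 2); the share of library counts is 1.27% and 1.22% in rfISCs against 1.58% and 1.62% in ESCs.

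Assembled members were short. Their median length was 630 bases (quartiles 346.5 and 1644.5, range 200 to 17623), against 3557 bases for assembled transcripts with a gene name. Ensembl members had a median length of 110 bases and ranged from 46 to 93147. Of them 1264 carried IDs of the ENSMUST0002 series, none of which passed the filter on low counts, and GENCODE M21 gives 51 of the listed entries as small nucleolar RNAs, which guide chemical changes on other RNAs. Standard libraries of total RNA mostly lose RNAs this short, and the part of this in the counts of these entries was not tested. A mean of at least 10 counts was reached by 1117 of 1879 assembled members and by 12 of 1503 Ensembl members. Per length, assembled members at this depth had a median of 2.08 CPM per kb, against 1.24 for assembled transcripts with a name and 1.58 for Ensembl transcripts with a name. A filter on counts favours long transcripts, and short ones pass it at a higher CPM per kb, so these medians are not matched for length.

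Much of the counts of the assembled members lay in 1 length class, and there in few members. The 55 members from 5 to under 6 kb held 34.6% of the CPM summed over members, while the same length class held 11.8% among assembled transcripts with a name. They were 11 of the 22 members at 100 CPM or more and 10 of the 20 most abundant. Their CPM summed to 4911 in the mean over libraries. The greater part lay in MSTRG.19081.1, MSTRG.5395.1, MSTRG.8465.1 and MSTRG.5292.1, with 1136, 925, 489 and 373 CPM. The 55 were not 1 locus: they were placed on 18 chromosomes, and 40 of the 55 were the single member of their locus. Together they had 4660 and 4333 CPM in rfISCs and 5068 and 5584 CPM in ESCs, and 39 of the 55 had the lower mean in rfISCs. Among all members with a mean of at least 1 CPM, 68.8% had it. The files hold no sequence for assembled transcripts, so what these share beyond length was not tested.

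**Figure D2:**
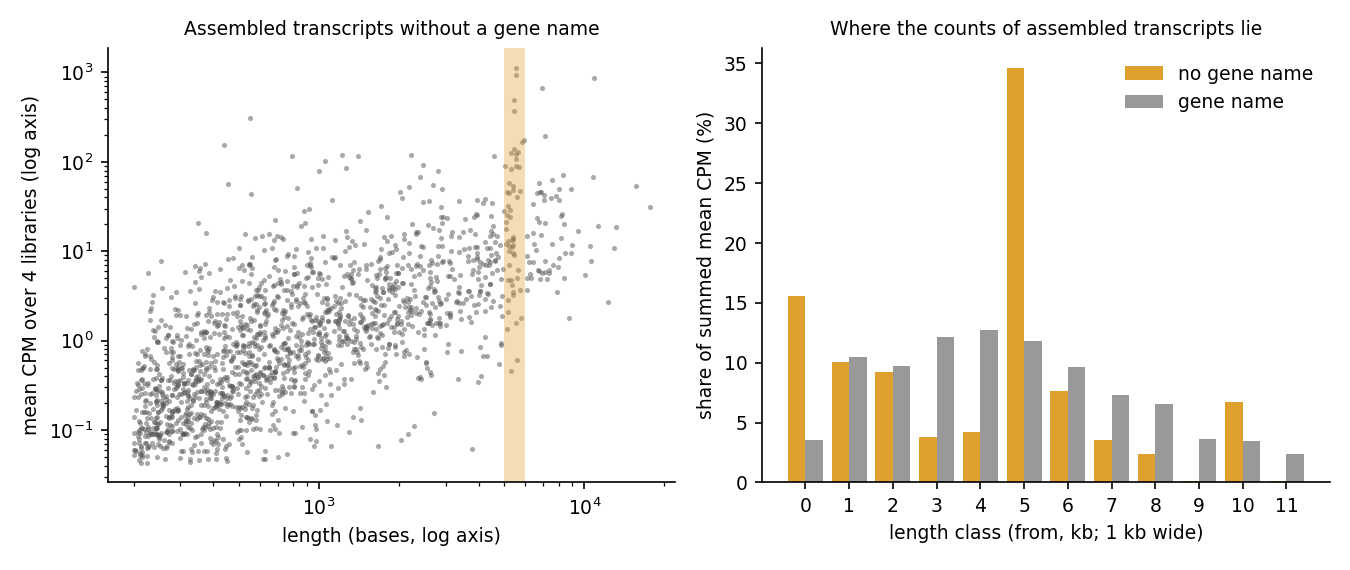
Left, mean CPM over 4 libraries against length for assembled transcripts without a gene name with a mean of at least 1 count (both axes log), with the class from 5 to under 6 kb shaded. Right, share of the summed mean CPM (%) by 1 kb length class for assembled transcripts without and with a gene name; the shaded class holds 34.6% against 11.8%.

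Replicates differed less for these transcripts than for rows with a gene name, except at high counts. Among transcripts with a mean of at least 10 counts in the group, the median absolute log2 ratio between replicates was 0.34 in rfISCs (1021 members) and 0.33 in ESCs (1161 members). For rows with a gene name it was 0.40 in both groups, and for assembled transcripts with a name 0.50 in both. A difference of over 2-fold between replicates was seen for 13.8% of members in rfISCs and 13.4% in ESCs, against 24.3% and 23.9% of rows with a name. At 200 counts or more the medians were 0.185 for members and 0.159 for named rows in rfISCs, and 0.168 and 0.172 in ESCs. Across transcripts, Pearson's correlation of log2 CPM between replicates was 0.880 in rfISCs and 0.901 in ESCs, where transcripts share their library and are not independent. Of the 1660 loci, 1537 had 1 member, while rows with a name are often isoforms of 1 gene, and the part of this in the difference was not tested. The chi-square per degree of freedom over members was 8.71 for the rfISCs pair and 12.6 for the ESCs pair, against 22.2 and 18.1 over all rows. Counts estimated per transcript vary by more than counting noise, so these values do not tell separate cultures from technical repeats.

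**Figure D3:**
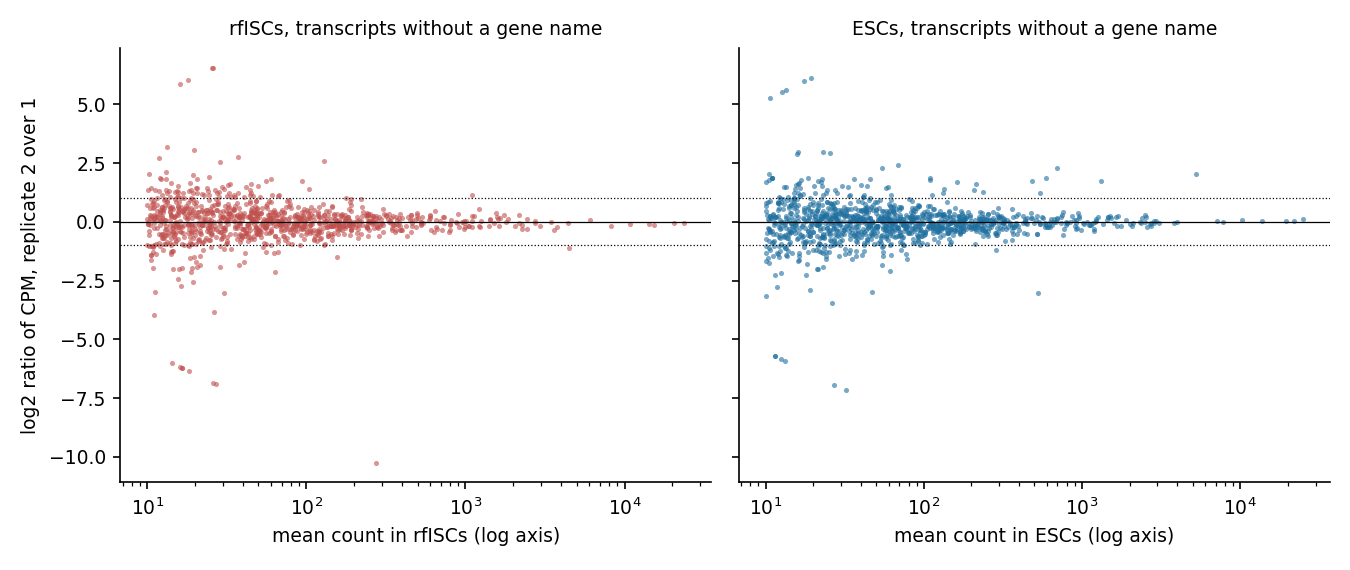
Log2 ratio of CPM between replicate 2 and replicate 1 against the mean count (log axis) for transcripts without a gene name with at least 10 counts on average, in rfISCs and in ESCs. Dotted lines mark 2-fold; 13.8% of members lie beyond them in rfISCs and 13.4% in ESCs.

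A few members broke from this. The widest gap at high counts was in MSTRG.25695.1, of 802 bases and described as a retrogene of Ube2s, a gene for a ubiquitin-conjugating enzyme. It had 25.5 and 0 CPM in rfISCs and 1.19 and 0 CPM in ESCs, so that in each group the counts lay in replicate 1. MSTRG.26617.1, of 5822 bases, had 276 and 128 CPM in rfISCs and 137 and 126 CPM in ESCs, and replicate 1 of rfISCs alone stood apart.

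In ESCs, 20 of 624 members with a mean of at least 50 counts were over 2-fold higher in replicate 2, and 12 were so in replicate 1. Among 27470 rows with a gene name at this depth, 1601 were over 2-fold higher in replicate 2 and 1686 in replicate 1, a larger share than among members. Of the 20 members, 16 were under 50% of the lower ESCs library in both rfISCs libraries. In rfISCs, 11 of 498 such members were over 2-fold higher in replicate 2 and 8 in replicate 1. Some of these members, named after their values were seen, had large differences between groups. MSTRG.2294.1, of 5615 bases and numbered between Ipmk and Gnaz on chromosome 10, had 6.82 and 4.25 CPM in rfISCs against 98.5 and 401 CPM in ESCs. MSTRG.1438.1 had 0.479 and 0.282 CPM in rfISCs against 11.2 and 54.4 CPM in ESCs. The neighbouring MSTRG.27305.1 and MSTRG.27306.1 on chromosome X did the same, the first with 0.815 and 0.617 CPM in rfISCs against 12.04 and 44.2 CPM in ESCs.
Groups did not overlap for these, yet their levels differed 3.22-fold to 4.84-fold between the ESCs replicates. The log2 fold change of MSTRG.2294.1 was -5.51 in the fit on summed counts described further on (edgeR adjusted p = 1.22e-04), with -4.16 when replicate 2 of ESCs was left out and -6.19 when replicate 1 was. Per transcript none of these 4 passed the test (edgeR adjusted p = 0.0636 for MSTRG.2294.1 and 0.0611 for MSTRG.27305.1). MSTRG.1438.1, with 10 and 7 counts in rfISCs, and MSTRG.27306.1, with 4 and 4, passed the filter on low counts through ESCs, so their p-values are not given.

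Most transcripts without a gene name had lower levels in rfISCs than in ESCs. Of 1174 that passed the filter, 808 had a negative log2 fold change (68.8%) and the median was -0.53, against 46.3% negative and a median of 0.07 over all 51365 transcripts tested. edgeR's quasi-likelihood test, adjusted over all transcripts, called 67 members, of which 59 fell and 8 rose. The background was 4.29% of all transcripts called, 2.05% lower and 2.24% higher, and among the members it was 5.71%, 5.03% lower and 0.681% higher. Of the 59, 53 fell at least 2-fold, and of the 8, 7 rose at least 2-fold. The filter acts on the larger group: 179 tested members had a mean under 10 counts in rfISCs and 67 had one in ESCs.
Assembled transcripts with a gene name had 361 falls and 198 rises among 12800 tested. No member, and none of all the transcripts, was called with the replicate number as a block. The calls did not hold with any 1 library left out either. In the full fit, edgeR's unadjusted p was under 0.05 for 384 of 1174 members and for 12029 of all 51365 transcripts. The number of calls rests on the test: DESeq2 called 331 members lower and 47 higher, and 11800 of all 51365 transcripts in either direction.

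The direction was alike from low to high levels. Of 872 members with a mean of at least 1 CPM, 600 (68.8%) had the lower mean in rfISCs, and the share was 68.9%, 67.8%, 71.4% and 68.2% from 1 to 5, 5 to 20, 20 to 100 and above 100 CPM. Among transcripts with a name it was 45.6%. Both rfISCs libraries lay below both ESCs libraries for 473 of the 872 members (54.2%), against 26.6% of all transcripts at this level, and above both for 166, against 32.2% of all transcripts. The size of the difference shrank with the level, from a median log2 ratio of -0.60 at 1 to 5 CPM to -0.13 above 100 CPM.

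**Figure D4:**
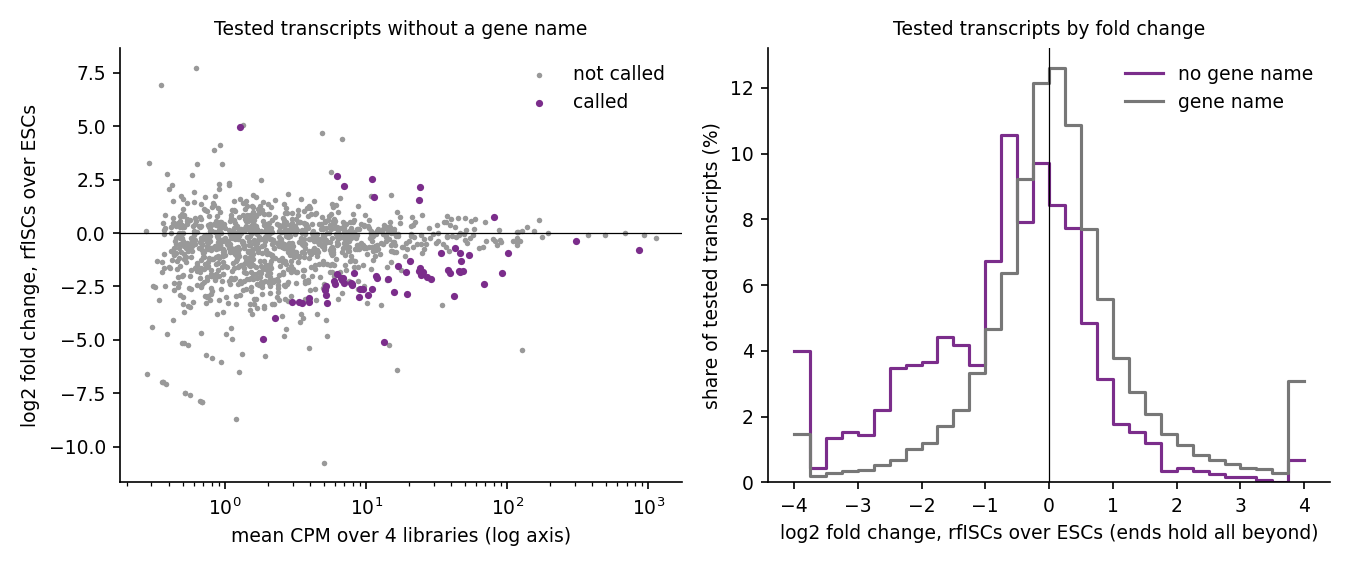
Left, log2 fold change of rfISCs over ESCs against mean CPM (log axis) for 1174 tested transcripts without a gene name, with the 67 called by edgeR in colour. Right, share of tested transcripts (%) by log2 fold change, without and with a gene name; 68.8% of those without a name lie below 0.

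The largest falls among called members came from loci spread over the genome. Their place is given by the nearest named loci before and after them in the assembly's numbering, which runs along the chromosomes; this gives an order, not a distance, and no coordinates. MSTRG.9691.1, of 5350 bases on chromosome 16, numbered between Ess2 and Slc25a1, a gene for the mitochondrial citrate carrier, had 0.877 and 0.621 CPM in rfISCs against 15.3 and 36.4 CPM in ESCs. Its log2 fold change was -5.09 ± 0.601 (SE, edgeR adjusted p = 0.0409), and -4.33 without ESCs replicate 2. MSTRG.13982.1, of 973 bases on chromosome 2, between Itprid2 and Nckap1, had 0.093 and 0.126 CPM in rfISCs against 3.43 and 3.76 CPM in ESCs, a log2 fold change of -4.96. MSTRG.2843.1, of 1628 bases on chromosome 10, had 0.279 and 0.252 CPM in rfISCs against 3.95 and 4.60 CPM in ESCs.
These 3 were close to 0 in rfISCs and low to moderate in ESCs. MSTRG.13982.1, with 2 and 3 counts in rfISCs, and MSTRG.2843.1, with 6 and 6, passed the filter on low counts through ESCs, so their p-values are not given. MSTRG.1549.2, of 1885 bases on chromosome 1, numbered between Sde2 and Lefty1, a gene for a secreted inhibitor of Nodal signalling, had 0.664 and 0.613 CPM in rfISCs against 5.67 and 7.02 CPM in ESCs. MSTRG.2210.1, of 3060 bases on chromosome 10, between Tysnd1 and Col13a1, had 1.02 and 0.925 CPM in rfISCs against 8.52 and 10.5 CPM in ESCs. MSTRG.5336.1 on chromosome 12 had 0.651 and 0.841 CPM in rfISCs against 6.65 and 7.58 CPM in ESCs.
The last 2 by size were MSTRG.6768.2 on chromosome 13, at 0.639 and 0.520 CPM in rfISCs against 4.76 and 6.05 CPM in ESCs, and MSTRG.19344.1 on chromosome 5, between Fbrsl1 and Ulk1, at 0.744 and 0.547 CPM against 6.81 and 5.21 CPM. The last 5 named had log2 fold changes from -3.29 to -3.21, with edgeR adjusted p-values from 0.0332 to 0.0477. For 2 of them, in loci of 2 members, the summed locus fell less, with a log2 fold change of -2.44 for the locus of MSTRG.1549.2 and -2.25 for that of MSTRG.6768.2.

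The 8 rises were fewer and came in part from 1 place. MSTRG.11319.1, of 1391 bases on chromosome 17 between Adgre1 and Fbxl17, had 2.70 and 2.23 CPM in rfISCs against 0.052 and 0.0929 CPM in ESCs. It had 111 counts in rfISCs and 3 in ESCs, a ratio of 33.3 with an exact 95% counting interval of 11.1 to 164. It passed the filter on low counts through rfISCs alone, so its p-value is not given. MSTRG.24847.2, of 925 bases on chromosome 8, had 10.4 and 12.5 CPM in rfISCs against 2.44 and 2.59 CPM in ESCs, a log2 fold change of 2.18 ± 0.265. MSTRG.7420.1, of 6628 bases on chromosome 14, had 40.4 and 29.8 CPM in rfISCs against 11.6 and 12.6 CPM in ESCs, a log2 fold change of 1.54 ± 0.205. MSTRG.26601.1, of 2431 bases, has a number at the end of chromosome 9, next to Ppp2r3d, a gene for a phosphatase subunit. It had 19.7 and 15.2 CPM in rfISCs against 5.40 and 5.39 CPM in ESCs.
The other 4 rises have numbers after the last named locus of chromosome 9, Ppp2r3d, and before the first of chromosome X, Clcn5, and could be given no chromosome. MSTRG.26613.1 had 19.8 and 17.7 CPM in rfISCs against 3.34 and 3.14 CPM in ESCs, and MSTRG.26613.2 of the same locus had 10.9 and 10.6 against 1.57 and 1.87 CPM. MSTRG.26612.1 had 39.5 and 38.3 CPM in rfISCs against 9.63 and 7.9995 CPM in ESCs. MSTRG.26614.3 was the most abundant rise, at 106 and 95.2 CPM in rfISCs against 58.8 and 59.2 CPM in ESCs, a log2 fold change of 0.77 ± 0.0843 (edgeR adjusted p = 0.0377).

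Of the 8 most abundant members, 2 fell in the test per transcript and 6 did not pass it. MSTRG.19081.1, of 5545 bases on chromosome 5 between Ythdc1, a gene for a reader of methylated adenosine in RNA, and the casein gene Csn3, had 1067 and 1036 CPM in rfISCs and 1164 and 1277 CPM in ESCs. MSTRG.5395.1, of 5539 bases on chromosome 12, had 916 and 886 CPM in rfISCs and 932 and 966 CPM in ESCs. MSTRG.24983.1, of 6905 bases on chromosome 9 next to Birc2, a gene for an inhibitor of apoptosis, had 715 and 649 CPM in rfISCs and 666 and 680 CPM in ESCs, and its groups overlapped.
MSTRG.8465.1, of 5441 bases on chromosome 14, had 492 and 460 CPM in rfISCs and 488 and 518 CPM in ESCs. MSTRG.5292.1, of 5425 bases on chromosome 12, had 385 and 339 CPM in rfISCs and 386 and 383 CPM in ESCs. MSTRG.3159.1, of 7079 bases on chromosome 11 before Meis1, a homeobox gene, had 199 and 189 CPM in rfISCs and 195 and 196 CPM in ESCs. In these 6 the log2 fold changes lay between -0.22 and 0.02, and edgeR's adjusted p-values between 0.124 and 0.953. In the fit on summed counts described further on, MSTRG.19081.1 did pass the test (edgeR adjusted p = 0.00614), and the other 5 did not.
The first that fell was MSTRG.9818.1, of 10882 bases on chromosome 16 between Lpp and P3h2, at 655 and 613 CPM in rfISCs against 1062 and 1100 CPM in ESCs, a log2 fold change of -0.77 ± 0.0476 (edgeR adjusted p = 0.0204). The second was MSTRG.26607.1, at 262 and 274 CPM in rfISCs against 344 and 353 CPM in ESCs, a log2 fold change of -0.38 ± 0.0461 (edgeR adjusted p = 0.0423). With 549 bases it was also the most abundant member per length, at 561 CPM per kb. MSTRG.15171.1, of 437 bases on chromosome 3, was next at 355 CPM per kb, with 180 and 140 CPM in rfISCs and 154 and 147 CPM in ESCs (edgeR adjusted p = 0.792). MSTRG.19081.1 and MSTRG.5395.1 followed at 205 and 167 CPM per kb.

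Counts were then summed over the members of each assembly locus, and over all rows of each gene name in a second fit. Summing left the counts of single-member loci, 1537 of 1660, as they were. What differed for them was the spread that edgeR estimates across all units, with 6.82 prior degrees of freedom over 17385 units against 1.92 over 51365 transcripts, and the number of units adjusted over. Of 1019 tested units without a name (1006 assembly loci and 13 Ensembl transcripts), edgeR called 469, of which 381 fell and 88 rose. That is 37.4% lower and 8.64% higher, beside a background of 22.2% lower and 30.4% higher over 17385 units, where 52.6% were called. At least 2-fold falls numbered 285 and at least 2-fold rises 53, and the median log2 fold change was -0.50, against 0.07 over all units. With each library left out in turn, 383 to 452 were called. With TMM scaling, which moved the median of all units to 0.00, 395 fell and 74 rose. This summing was added after the results per transcript were seen.

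Falls outnumbered rises on 20 of 21 chromosomes, and Y was the other, with 1 of each among 22 loci. Over all 16366 named genes tested, 3482 fell and 5194 rose. On chromosome 13, 36 of 58 tested loci fell and none rose, with a median log2 fold change of -1.63. Genes with a name on chromosome 13 had 174 falls and 171 rises among 650 tested, with a median of -0.02. On chromosome 11, 20 of 43 loci fell and 4 rose, against 223 falls and 438 rises among 1214 named genes. On chromosome 14, 10 of 40 loci fell and 7 rose, with a median of -0.12. Named genes there had 107 falls and 201 rises among 572 tested, with a median of 0.14.

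The numbering also shows where members that fell lie together, in stretches described after their values were seen. On chromosome 4, from Gm21411 to Zfp993, 46 members lie among zinc finger genes that include Rex2, Zfp600 and Zfp992; such proteins with a KRAB domain are known to silence repeated elements. Together these members had 303 and 349 CPM in rfISCs against 1108 and 1200 CPM in ESCs. Of 40 tested, 35 had negative log2 fold changes, and 18 of the 59 members called lower per transcript lay here. In the fit on summed counts, 13 of 18 loci fell and 1 rose, MSTRG.18055, with a log2 fold change of 1.49 (edgeR adjusted p = 0.0453). Of 34 named genes tested in this stretch, 29 fell and none rose, with a median of -1.53. Some loci here, MSTRG.17952, MSTRG.18008 and MSTRG.18063 among them, hold members and rows of named genes alike. The falls of members and of named genes are therefore not separate observations there.
MSTRG.18053.1, of 10743 bases, had 21.03 and 23.5 CPM in rfISCs against 114 and 114 CPM in ESCs, a log2 fold change of -2.36 ± 0.0912 (edgeR adjusted p = 0.0184). MSTRG.18067.3, of 2461 bases, had 34.5 and 43.9 CPM in rfISCs against 143 and 145 CPM in ESCs. MSTRG.18037.1, of 7823 bases between Zfp986 and Zfp987, had 9.28 and 9.66 CPM in rfISCs against 67.6 and 79.9 CPM in ESCs. Genes of such clusters can be alike in sequence, and how the authors' counting divided reads among them and the members was not tested.

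On chromosome 13, in a stretch of 50 assembly numbers that holds Zfp997, Zfp998 and Gm38428, 25 members summed to 12.6 and 16.6 CPM in rfISCs against 94.0 and 89.8 CPM in ESCs. All 18 tested there had negative log2 fold changes, and 11 of 12 loci fell in the summed fit. All 17 named genes tested there fell, with a median of -2.77. Some of them have rows in the same loci as members, such as MSTRG.6756, MSTRG.6765, MSTRG.6771 and MSTRG.6791, and are not separate from them. Zfp997 had 10.9 and 10.9 CPM in rfISCs against 99.3 and 103 CPM in ESCs, a log2 fold change of -3.21 (edgeR adjusted p = 3.22e-08). Of the members, 4 in this stretch were described as pseudogenes of the zinc finger gene Zfp932. MSTRG.6791.5 had 1.17 and 2.64 CPM in rfISCs against 19.5 and 16.9 CPM in ESCs, and MSTRG.6791.2 had 1.86 and 3.34 CPM in rfISCs against 11.02 and 13.9 CPM in ESCs. None of the 4 passed the test per transcript (edgeR adjusted p = 0.0566 for MSTRG.6791.5 and 0.0709 for MSTRG.6791.2). In the fit on summed counts the locus of these 2 fell with a log2 fold change of -2.76 (edgeR adjusted p = 1.66e-05).
Zfp932 itself had 26.6 and 27.1 CPM in rfISCs and 28.9 and 30.1 CPM in ESCs, a log2 fold change of -0.13 (edgeR adjusted p = 0.248). The smaller MSTRG.6792.1 had 0.971 and 0.0429 CPM in rfISCs against 4.52 and 2.76 CPM in ESCs, and it depended on rfISCs replicate 1: its log2 fold change was -2.86 in the full fit, -6.24 without that library and -1.88 without rfISCs replicate 2. MSTRG.6793.1 had 0.201 and 0.569 CPM in rfISCs and 1.06 and 1.14 CPM in ESCs, and did not pass the test on summed counts. MSTRG.6792.1, with 21 and 1 counts in rfISCs, and MSTRG.6793.1, with 4 and 14, passed the filter on low counts through ESCs, so their p-values are not given. An Ensembl entry with the same description, ENSMUST00000239522, had 2 counts in rfISCs and 53 in ESCs, a ratio of 0.0340 with an exact 95% counting interval of 0.00401 to 0.129.

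Rises lay together at other places, also described after their values were seen. On chromosome 14, between Gm3084 and Gm2897, 7 members summed to 75.8 and 62.5 CPM in rfISCs against 19.3 and 25.1 CPM in ESCs, and all 6 tested loci had positive log2 fold changes, 5 of them called. Of 10 named genes there, 8 rose and none fell. MSTRG.7448.1 had 24.4 and 21.997 CPM in rfISCs against 4.78 and 8.69 CPM in ESCs. In the numbers between chromosomes 9 and X, 27 members summed to 926 and 760 CPM in rfISCs and 707 and 683 CPM in ESCs. Of 14 loci tested there, 6 rose and 2 fell, and no row with a gene name shares these numbers. MSTRG.26607.1, which fell, and MSTRG.26617.1, whose rfISCs libraries differed as given above, make up the largest part of that sum.

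**Figure D5:**
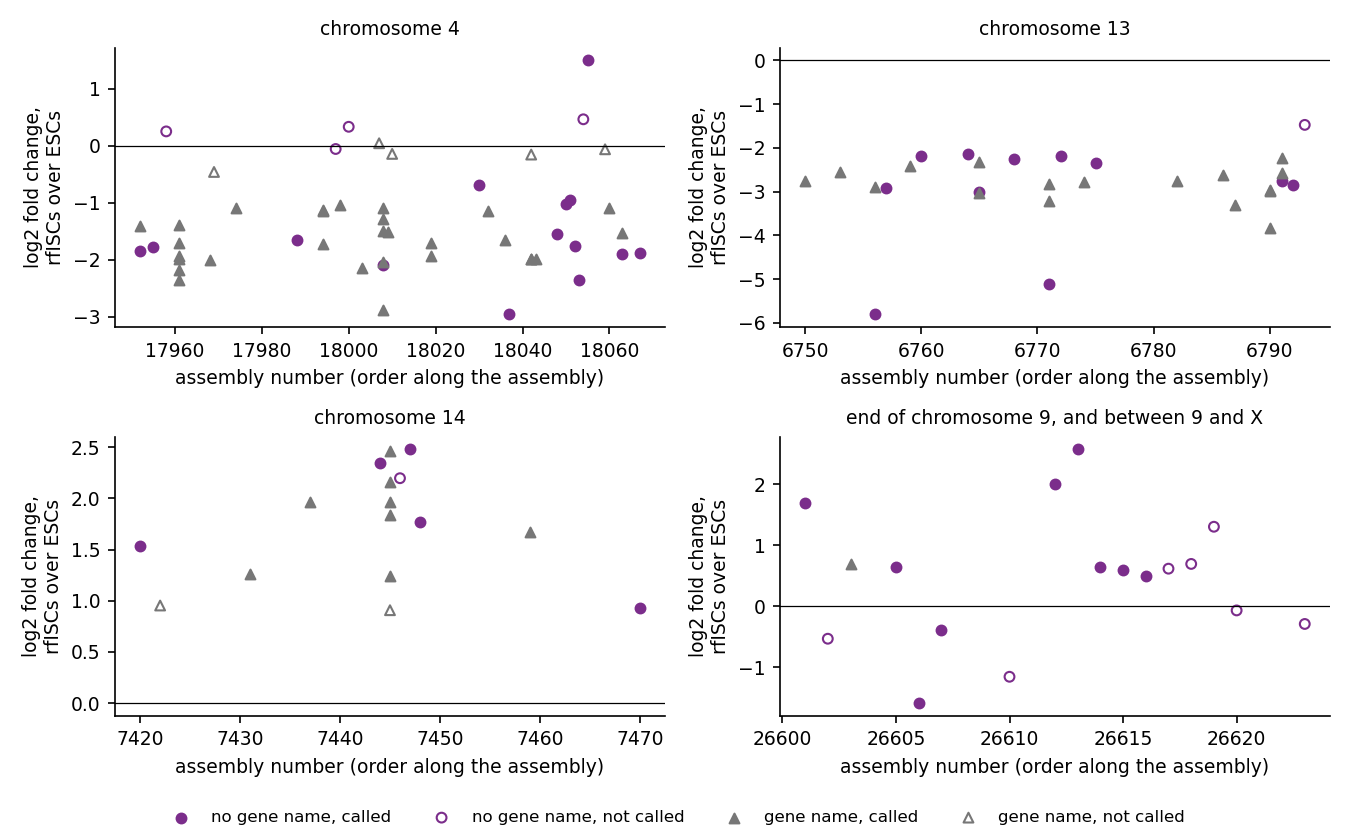
Log2 fold change of rfISCs over ESCs (summed counts) along the assembly's numbering in 4 stretches, for loci without a gene name (circles) and genes with one (triangles), filled where edgeR called them. Loci on chromosomes 4 and 13 lie mostly below 0 beside named genes that fell, and those on chromosome 14 above 0. Some of the loci on chromosomes 4 and 13 also hold rows of these named genes.

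Loci with 5 or more members numbered 11, and members of a locus share reads and are not independent. MSTRG.18008, on chromosome 4 at Zfp992, had 9 members that together had 43.0 and 50.6 CPM in rfISCs against 192 and 208 CPM in ESCs. MSTRG.6765 on chromosome 13 had 8 members with 2.25 and 2.998 CPM in rfISCs against 21.9 and 20.1 CPM in ESCs. Both loci fell, with log2 fold changes of -2.10 and -2.998 (edgeR adjusted p = 2.93e-07 and 2.38e-06). MSTRG.24174, on chromosome 8 between Msmo1, a gene of cholesterol synthesis, and Tma16, had 5 members with 18.5 and 16.1 CPM in rfISCs against 2.23 and 2.23 CPM in ESCs.
MSTRG.24174 rose with a log2 fold change of 2.95 ± 0.184 (edgeR adjusted p = 2.51e-06). On Y, MSTRG.27610 had 12 members, the most of any locus, with 151 and 134 CPM in rfISCs and 137 and 111 CPM in ESCs (log2 fold change 0.20, edgeR adjusted p = 0.134). Its neighbour MSTRG.27612 had 6 members with 43.1 and 35.7 CPM in rfISCs and 39.1 and 33.8 CPM in ESCs, and its groups also overlapped. Another Y locus, MSTRG.27619, rose: its 8 members had 34.9 and 40.4 CPM in rfISCs against 27.8 and 19.2 CPM in ESCs, a log2 fold change of 0.69 (edgeR adjusted p = 0.00613).

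Among Ensembl members, 13 were tested, of which edgeR called 1 per transcript and 8 in the fit on summed counts, 3 higher and 5 lower. Over all features, 4.29% were called per transcript and 52.6% in the fit on summed counts. Of these 8, 3 had no counts in 1 state and passed the filter through the other. ENSMUST00000239522, also among the 8, had 2 counts in rfISCs and passed it through ESCs. Among the 5 lower ones, AC139131.1 (ENSMUST00000232806) was not called without rfISCs replicate 2 or without either ESCs replicate (edgeR adjusted p = 0.207, 0.0644 and 0.064). The lincRNA AC160336.1, whose start is printed above, was the longest, with 33.4 and 31.9 CPM in rfISCs against 52.4 and 52.5 CPM in ESCs. It fell with a log2 fold change of -0.68 ± 0.0869 (edgeR adjusted p = 0.0448). Replicates lay close together and the groups did not overlap. ENSMUST00000239545, described as mucin 19, a gel-forming mucin, was the next longest at 22800 bases, with 1.16 and 2.02 CPM in rfISCs and 0.364 and 1.16 CPM in ESCs (edgeR adjusted p = 0.537).
GENCODE M21 places 51 of these entries on unplaced scaffolds. Of them, 2 transcripts of AC149090.1, annotated as protein-coding, were the most abundant. ENSMUST00000179505 had 78.6 and 85.5 CPM in rfISCs against 59.2 and 53.8 CPM in ESCs, and ENSMUST00000178343 had 47.5 and 49.2 against 29.6 and 32.4 CPM. Neither passed the test per transcript (edgeR adjusted p = 0.0669 and 0.0586), and both did in the fit on summed counts (edgeR adjusted p = 4.76e-04 and 2.71e-04).
The short protein-coding AL731706.1 had 11.3 and 11.7 CPM in rfISCs and 8.51 and 9.47 CPM in ESCs (edgeR adjusted p = 0.398).

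Some members had counts in 1 state alone. After rounding, 13 tested members had no counts in rfISCs and 2 had none in ESCs. The lincRNA AC156546.1 (ENSMUST00000235649) had 57 counts in rfISCs and 0 in ESCs, at least 17.1-fold higher in rfISCs when the ESCs total is set to 3 counts. MSTRG.14675.1, of 1684 bases on chromosome 2 next to Tpx2, a gene of the mitotic spindle, had 32 counts in rfISCs and 0 in ESCs, at least 9.60-fold higher. MSTRG.20751.1, of 1065 bases on chromosome 6, had 0 counts in rfISCs and 97 in ESCs, at least 35.9-fold lower in rfISCs. The scaffold transcripts AC140325.4 and AC133095.2, both of 1446 bases and annotated as protein-coding, had 0 counts in rfISCs against 42 and 29 in ESCs, at least 15.6-fold and 10.7-fold lower. AC133095.2 did not pass the filter without ESCs replicate 1. These 5 passed the filter on low counts through the state where they have counts, so no test is given for them. Intervals and floors cover counting error only.

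The authors' deposited table marks 11 members as significant and up and 132 as significant and down in rfISCs, and among all rows it marks 2202 up and 1538 down. The smallest absolute log2 fold change among marked rows was 2.32. The calls reported here have no cut on fold change, so their numbers are not at a like threshold.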

How the data were processed

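Total RNA extracted with Trizol was sequenced on an Illumina NovaSeq X Plus with standard Illumina protocols, per the labels. The deposited data are a single table of transcripts. Its 4 library columns are estimated counts, which the authors left unscaled, beside TPM per library, and length. The authors also deposited a ratio of rfISCs to ESCs as fold change, its log2 and a p-value and adjusted p-value, of which only the marks of significance are quoted here. Bowtie 0.12.2 and mm9 appear in the submitters' processing notes without a role. For the assembler, quantifier, annotation and strand setting, the sources used here give nothing.

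Members are the rows with a blank gene name. CPM is the count divided by the library's total over all rows. Rounded counts of all rows were fitted with edgeR 4.0.16 (quasi-likelihood test, R 4.3.3) on library totals with group as the 1 term. filterByExpr with its minimum count of 10 kept rows, and an adjusted p under 0.05 over all rows tested (Benjamini-Hochberg) counted as a call. The SE is the log2 fold change divided by the square root of F. Alternatives used TMM, DESeq2 1.42.0, and limma 3.58.1 on log2(TPM + 1). A further fit summed counts by gene name, or by assembly locus where there was none. Replicate ratios used a pseudocount of 0.5 counts, and ratios of group means 0.05 CPM.

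Chromosomes of assembled members came from the nearest named loci in the assembly's numbering: of 7726 consecutive pairs of named loci, 99.6% lay on the same chromosome in GENCODE M21. This placed 1807 of 1879. Since the table's build was not settled, no coordinates are given for them. Sequences and coordinates of Ensembl entries are those of GENCODE M21 (GRCm38).

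The members and lists were chosen with earlier results of these data known. Transcripts named by rule are the 8 largest rises and falls among calls with a mean of at least 1 CPM and no overlap, the 8 most abundant, the 4 most abundant per length, and the 2 longest tested. Others were chosen after their values were seen.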

Additional observations from a re-analysis of the deposited data

How the results depend on the processing

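The direction of the members as a set held, with a median log2 fold change from -0.63 to -0.38 in the fits per transcript and from -0.60 to -0.37 in those on summed counts, while the number of calls per transcript did not hold. Calls were 67 (8 higher, 59 lower) in the full fit, 378 (47 higher, 331 lower) with DESeq2, 160 (27 and 133) with limma on log2(TPM + 1), 133 (21 and 112) on log2(TPM + 0.1) and 121 (14 and 107) with edgeR's bias-adjusted deviances, an alternative added after the data were seen. They were 0 with the replicate number as a block (276 at an unadjusted p under 0.05) and ranged from 0 to 0 with each library left out, higher and lower alike. Over all transcripts the calls were 2204 in the full fit, 11800 with DESeq2, 3664 with bias-adjusted deviances, 0 with the block (9118 unadjusted) and from 0 to 0 with a library left out (9407 to 10962 unadjusted). The limma fits kept rows with a mean of at least 1 TPM, and so tested 1475 members, against 1174 in the full fit. Over all transcripts they called 3292 and 2631 of 41284 at the 2 pseudocounts, while the full fit tested 51365. Across all tested transcripts, same-numbered libraries did not deviate together (correlation -0.01, and -0.05 over tested members). A correlation over all rows cannot tell whether some transcripts share a deviation by replicate number. MSTRG.25695.1 had its counts in replicate 1 of both groups. In the fit on summed counts, called units were 469, and 468 with the block; DESeq2 called 49 higher in place of 88. With an unadjusted p under 0.05, edgeR gave 518 of 1019 summed units without a name, and 10144 of all 17385 units. The share of counts, -0.356 percentage points between rfISCs and ESCs, was -0.275 on TPM and -0.282 without the 10 most counted members, and ranged from -0.381 to -0.331 with a library left out. Members detected in rfISCs averaged 1586 at 1 count and 1035 at 10. The median absolute log2 ratio between replicates was 0.50 in rfISCs and 0.48 in ESCs when members with a mean of 1 to 10 counts were included. Each member named by rule was compared with the full fit once per alternative setting. Of these comparisons, 227 stayed the same, 13 changed sign and 105 lost a call. The lost calls include every call under the block and with a library left out, where no transcript at all was called. For the others the cause was not tested. DESeq2 gained 2 calls, MSTRG.19081.1 (adjusted p = 0.000892) and MSTRG.5395.1 (adjusted p = 0.0297). The sign changes were near 0 and uncalled. With limma at the 2 pseudocounts the log2 fold changes were 0.0122 and 0.0122 for MSTRG.5395.1, 0.0063 and 0.0063 for MSTRG.8465.1 and 0.0765 and 0.0783 for MSTRG.3159.1. For MSTRG.24983.1 they were -0.0353 with TMM, -0.0297 with DESeq2's size factors and -0.0298 with DESeq2. With a library left out they ranged from -0.0537 to 0.0867 for MSTRG.24983.1, from -0.182 to 0.0025 for MSTRG.5292.1, from -0.0449 to 0.0263 for MSTRG.3159.1 and from -0.105 to 0.261 for MSTRG.15171.1. No counts were found for 1455 of 3382 members, 1370 of them Ensembl entries, and the part of depth in this was not tested.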
